A study of Caenorhabditis elegans with 13 samples.

Results

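Freshly sorted embryonic muscle cells of Caenorhabditis elegans (M0, 3 arrays) were compared with all living embryonic cells sorted at the same time point, 0 hr (R0, 3 arrays). These 6 arrays were taken, by their titles, from a series of 13 Affymetrix whole-genome arrays, and all 22548 probe sets on them entered the comparison. M0 cells came from embryos of animals with an integrated myo-3::GFP transgene, in which the promoter of a myosin heavy chain gene drives green fluorescent protein (GFP). They were released from bleached gravid adults, dissociated with chitinase and sorted for GFP at 0 hr, without culture. R0 cells were prepared from wild-type (N2) embryos in the same way, at 0 hr, and sorted only for living cells. Transgene and cell type can therefore not be told apart. The reporter also marks the anal depressor and sphincter muscles, not every sorted cell carries GFP, and R0 itself contains muscle cells. In such populations, fewer cells of a type and less RNA per cell cannot be told apart. The replicates of a group are separate biological preparations per the labels.

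Body wall muscle of the nematode arises mostly from mesodermal precursors early in embryogenesis, under the control of hlh-1, the worm's MyoD relative. At the stage that can be dissociated, the cells have begun to make myosin but have not finished their sarcomeres. Muscle cells also secrete basement membrane and signals to neighbouring tissues, and they receive nerve input through arms that they extend themselves. Gene functions of the latter kind, beyond the contractile apparatus, are described here.

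The labelled cell type was checked first. The myosin gene myo-3 had deposited intensities of 136, 57.7 and 149 in R0 and 603, 484 and 1364 in M0, so that the groups did not overlap. For hlh-1 the intensities were 38.7, 21.9 and 31.4 in R0 and 142, 209.8 and 204 in M0. All 9 body wall muscle markers were higher in M0, and their summed intensity was 4409 to 7711 in R0 and 18209 to 23857 in M0. Summed markers of neurons went from 9236 to 10043 in R0 down to 3072 to 4051 in M0, those of epidermis from 11290 to 12510 down to 2608 to 4116, and those of pharynx from 1731 to 1999 down to 541 to 686. Intestine markers summed to 815 to 1108 in R0 and 604 to 783 in M0. Germline and maternal markers summed to 1040 to 1553 in R0 and 809 to 994 in M0. By the rule given below only 1 of 9 and 1 of 10 of these were lower, with median log2 fold changes of -0.04 and 0.11. Of 3 coelomocyte markers 2 were lower, and of 2 glia markers 0. RMA intensities do not reach 0, so that a level in M0 does not show whether other cells remained. The squared correlation of log2 values (R²) was 0.904 to 0.944 between M0 arrays, 0.908 to 0.957 between R0 arrays and 0.747 to 0.843 between groups. Replicate 2 had the narrowest spread of values in both groups, and only the pairs M0 replicate 1 with R0 replicate 1 and M0 replicate 2 with R0 replicate 3 were scanned on a shared day.

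Each gene was represented by its brightest probe set and called where its fold change was at least 1.7 and its limma p, adjusted by Benjamini and Hochberg across the whole array, was under 0.05. By this rule 859 probe sets (3.81%) were higher in M0 and 1784 (7.91%) lower. Of 17118 genes, 680 (3.97%) were higher in M0 and 1437 (8.39%) were lower. These shares are the background against which counts of gene groups are read below. They include dim genes, which are seldom called. Among genes reaching the median intensity in either group, 6.32% were higher and 13.6% lower on autosomes, and 9.71% and 18.2% on X. A list of bright genes can therefore exceed the background by its level alone, and counts were not corrected for level. All M0 arrays lay above all R0 arrays for 2961 genes (17.3%) and below them for 2625 (15.3%). The genes higher in M0 changed more steeply: 209 of them differed at least 4-fold, against 268 of the larger lowered set, and 50 against 37 differed at least 8-fold. The median gene had a log2 fold change of 0.10. Genes named below follow a rule on rank and list membership. All 179 called genes among them had the same sign within both same-day pairs. Those pairs are among the arrays that gave the calls, so this result was largely set in advance and is no independent check.

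**Figure D1:**
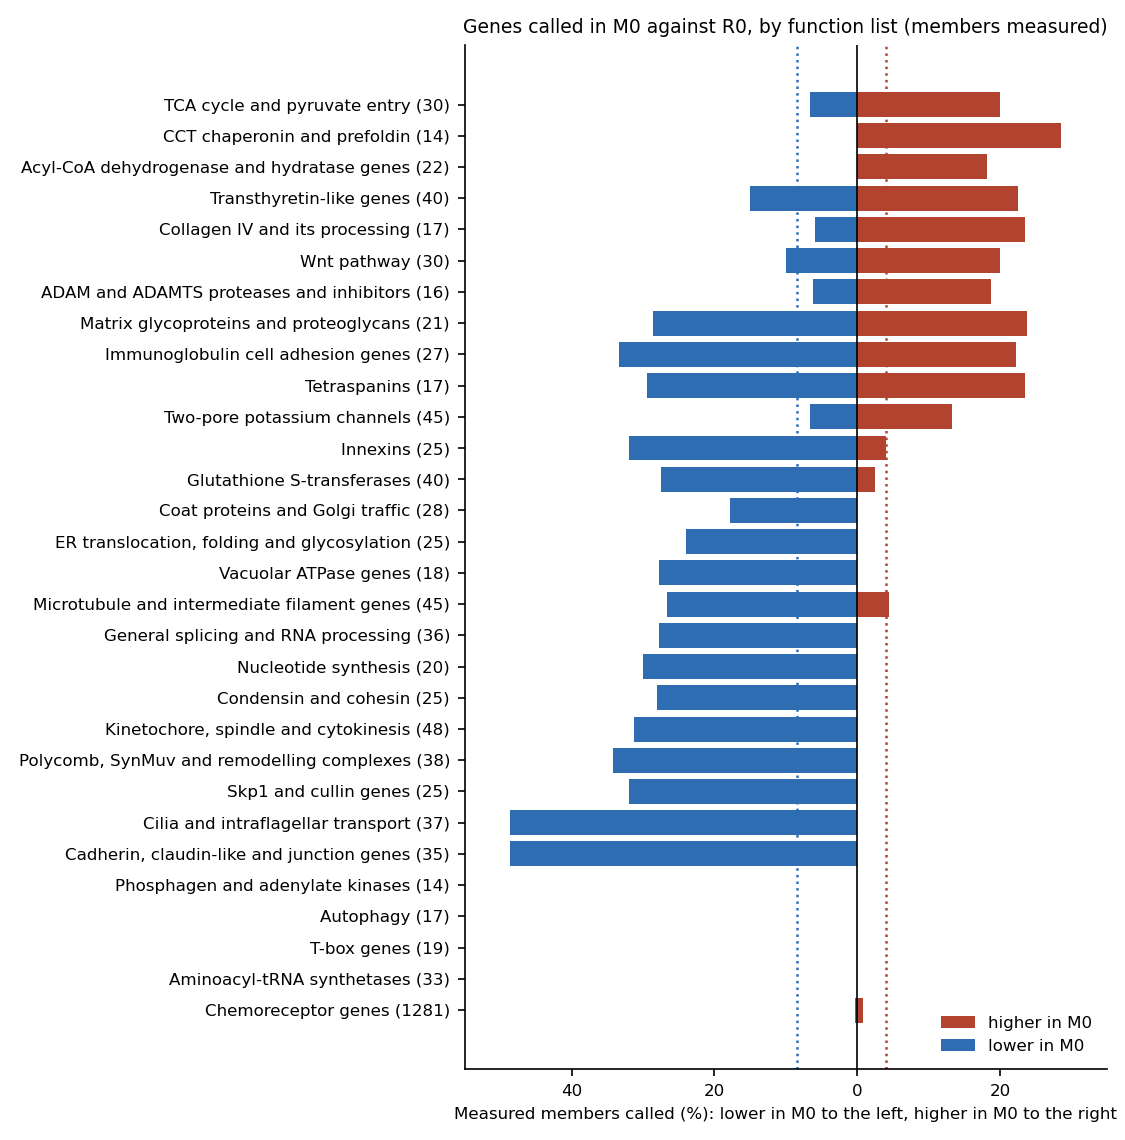
Share of measured members called higher (right) or lower (left) in M0, in percent, for 30 function lists, with the number measured in brackets. Dotted lines mark the shares over all genes, dim ones included, 3.97% and 8.39%. Lists of metabolism and matrix lie beyond the right line, those of cilia, junctions and nuclear machinery beyond the left.

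The steepest differences were in genes outside the contractile apparatus. F53A3.1, to which no role is given here, led with intensities of 52.7, 27.4 and 68.3 in R0 and 1291, 727 and 666 in M0, a log2 fold change of 4.21 ± 0.36 (standard error of the fit, n = 3 and 3, adjusted p = 2.10e-04). dpy-20, a gene named for the short body of its mutants, gave 43.6, 68 and 70.7 in R0 and 987, 812 and 1226 in M0 (4.07 ± 0.24). For both genes the M0 arrays lay far above all R0 arrays. Transgene and cell type cannot be told apart for dpy-20, nor for any other gene here. Others of the leading 30 were cah-5, a carbonic anhydrase (3.64), gcp-2.1, a relative of glutamate carboxypeptidase (3.27), and tric-1B.1, a member of the intracellular TRIC cation channels (3.33). For gcp-2.1 the other probe set gave 0.40 and was not called. Neighbouring loci R04B5.5 and R04B5.6 moved together (3.76 and 3.78), and because the probe set of R04B5.6 is of the type that can match several transcripts, the pair may share signal.

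Enzymes of energy metabolism differed by pathway. The mitochondrial citric acid cycle oxidises acetyl units from sugar and fat, and isocitrate dehydrogenase is one of its control points. Of 30 measured genes of the cycle and pyruvate entry, 6 were higher in M0 and 2 were lower, with a median log2 fold change of 0.58. idhg-2, a subunit of the mitochondrial isocitrate dehydrogenase, had intensities of 143, 72.4 and 94.1 in R0 and 1507, 692 and 978 in M0 (3.34 ± 0.33, adjusted p = 3.38e-04). The succinate dehydrogenase genes sdha-1 (1.02 ± 0.20) and mev-1 (0.86 ± 0.17) rose less, and the other probe set of sdha-1 was not called (0.20). icl-1 encodes the nematode's fused glyoxylate enzyme, which lets acetyl units from fat bypass the decarboxylations, and it stood at 1207, 763 and 855 in R0 and 2396, 2814 and 4480.0 in M0 (1.75 ± 0.27), with both other probe sets of the gene also called. mdh-1, a cytosolic malate dehydrogenase, gave 1732, 389 and 1201 in R0 and 3665, 3642 and 5428 in M0 (2.16 ± 0.48). The other 2 measured cytosolic genes of the list were lower: idh-1, the NADP-dependent isocitrate dehydrogenase (-1.54 ± 0.23), and aco-1, the cytosolic aconitase (-1.43 ± 0.34). The other probe set of idh-1 was negative but not called (-1.11).

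The calls of 3 of these genes did not hold without each array in turn, while their log2 fold changes kept their sign. That of mdh-1 was lost without M0 replicate 2 or 3 (adjusted p of 0.0533 and 0.0602), that of mev-1 without R0 replicate 3 (0.0510), and that of aco-1 without M0 replicates 1 or 2 or R0 replicates 1 or 3 (0.0513 to 0.0777). The list's median also shrank within days, to 0.05 for the pair of day 1 and 0.31 for that of day 3, and was 0.15 with scan day as a block. A fixed day block gives no weight to R0 replicate 2 and M0 replicate 3, which were each scanned on a day of their own.

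Genes of fatty acid breakdown and synthesis were called in small numbers. Fatty acids are first activated by acyl-CoA synthetases and then shortened by acyl-CoA dehydrogenases and enoyl-CoA hydratases. Of 22 measured dehydrogenase and hydratase genes, 4 were higher in M0, 0 were lower and 19 had a positive log2 fold change (median 0.47). ech-4, of the hydratase and isomerase family, stood at 141, 96.8 and 79.4 in R0 and 514, 704 and 689.6 in M0 (2.62 ± 0.24). The dehydrogenases acdh-7 and acdh-9 followed (2.09 ± 0.34 and 2.06 ± 0.34). Among 23 acyl-CoA synthetases 2 rose and 3 fell. acs-17 had 242, 81.7 and 208 in R0 and 1128, 1165 and 1411 in M0 (2.94 ± 0.37), and acs-16 gave 1.55 ± 0.25, whereas acs-20 fell by 1.95 on the log2 scale. Of 22 genes of fatty acid synthesis and desaturation, 1 rose and 4 fell, among them fasn-1, the fatty acid synthase (-1.78 ± 0.36), and fat-4, a desaturase of polyunsaturated fatty acids (-1.43 ± 0.19). The other probe set of fasn-1 was not called (-0.19), and the call of fasn-1 was lost without M0 replicate 2 (adjusted p = 0.0541), and the count of lowered synthesis genes was then 1 and, without R0 replicate 1, 2.

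Carriers of lipid split within their family of 9 measured members. lbp-2 (33.1, 46.4 and 56.2 in R0, 194, 146 and 134 in M0, 1.82 ± 0.24) and lbp-3 (1.59 ± 0.33) were higher in M0, and lbp-1 (-2.02 ± 0.27) was lower, as was 1 other member. pyk-2, a pyruvate kinase at the end of glycolysis, was low in R0 (50, 45.3 and 33.2) and high in M0 (504, 285 and 478), a log2 fold change of 3.28 ± 0.26. By contrast 0 of 14 genes of phosphagen, adenylate and AMP-activated kinases were called by limma in either direction. The 3 phosphagen kinases are of the type that buffers ATP in working muscle, whereas 8 of the 14 belong to AMP-activated kinase. At an unadjusted p under 0.05, 1 of the 14 was higher and 1 lower, and without M0 replicate 2, 1 was called higher. With scan day as a block 2 were lower.

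**Figure D2:**
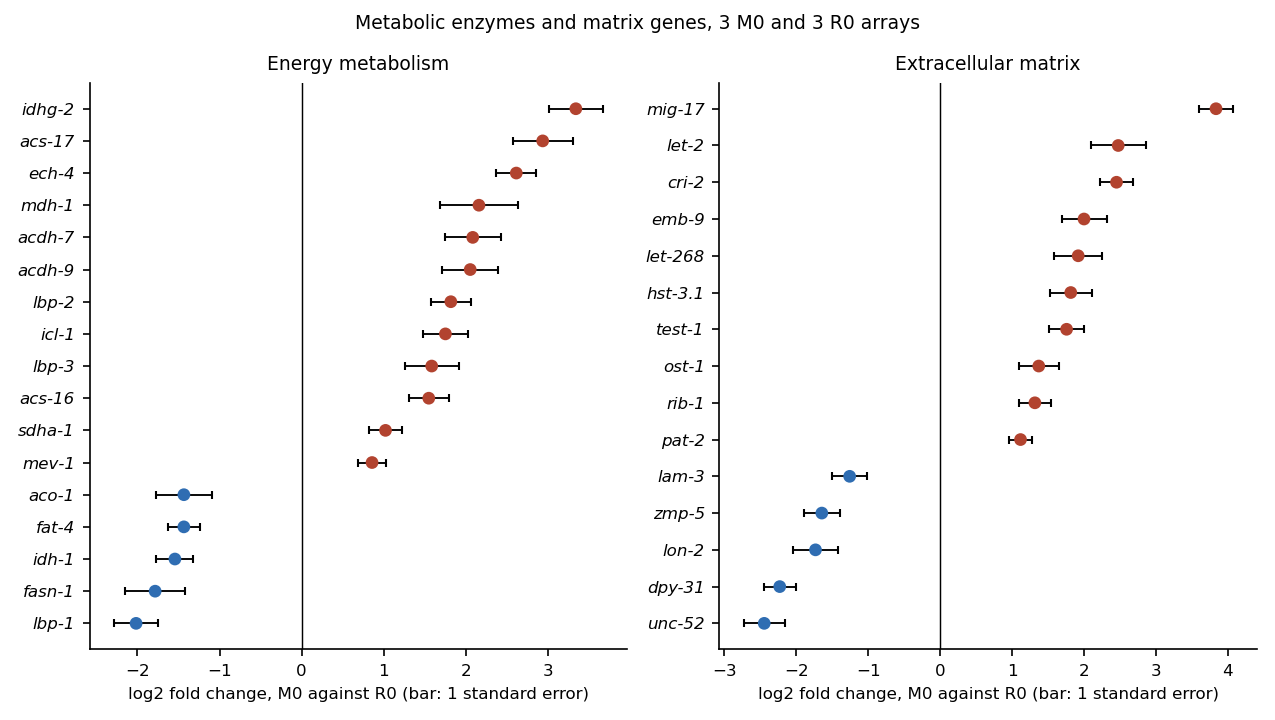
Log2 fold change of M0 against R0, with 1 standard error of the fit, for metabolic enzymes (left) and matrix genes (right), n = 3 arrays in each group. idhg-2 and mig-17 led their panels, and lbp-1 and unc-52 had the deepest falls.

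A few genes of the cytosolic chaperonin CCT were higher in M0, and a few genes of the endoplasmic reticulum (ER) were lower. CCT folds actin and tubulin with the help of prefoldin. Of 14 measured genes of CCT and prefoldin together, 4 were called higher and all 14 had log2 fold changes above 0, with a median of 0.50. cct-1 gave 1269, 995.5 and 1260.1 in R0 and 1670.1, 2551 and 2271 in M0, and cct-2, cct-6 and cct-7 had log2 fold changes of 1.00, 0.93 and 1.02. These are small changes, and the count of called genes fell from 4 to 2 without R0 replicate 2, to 1 without M0 replicate 2 and to 0 without M0 replicate 3 or R0 replicate 3, when their adjusted p reached 0.0905, 0.11, 0.0633 and 0.0889. With scan day as a block 2 members were called, none of them among these 4 (adjusted p of 0.0585 to 0.0833).

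Of 25 genes of ER translocation, folding and glycosylation, 0 were higher and 6 lower, 23 had a negative log2 fold change and the median was -0.86. ostb-1 and ostd-1, subunits of the oligosaccharyltransferase that attaches N-glycans, were lower, with log2 fold changes of -1.27 and -0.89. pdi-6, a disulfide isomerase, was bright in every sample, with 2809.7, 2905 and 3063 in R0 and 1291, 1649 and 1424 in M0. ire-1, a sensor of unfolded protein, was also lower (-1.07 ± 0.21), whereas its other probe set gave 0.06. Of the 5 ER chaperones limma called 0, and 3 were lower at an unadjusted p under 0.05. The count of 6 lowered genes was 14 without R0 replicate 2 and 16 with scan day as a block, and no array left out took it below 4.

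Genes of the clathrin step of membrane traffic were lower in M0. Adaptor complex 2 links clathrin to cargo at the cell surface, and the genes of all of its subunit types were lower in M0. apa-2 (alpha) had intensities of 265, 342 and 350.3 in R0 and 149, 74.9 and 129.8 in M0. The others were apb-1 (beta, shared with adaptor complex 1, -1.84 ± 0.28), dpy-23 (mu, -1.48 ± 0.21) and aps-2 (sigma, -1.47 ± 0.24). In the list of 28 coat and Golgi genes, 5 of the 8 clathrin and adaptor genes were called, and 0 of 9 genes of the COPII coat, which leaves the ER (1 higher and 0 lower at an unadjusted p under 0.05). Of 7 genes of the COPI coat, which acts at the Golgi, limma also called 0, but 6 were negative (median -0.56) and 4 were lower at an unadjusted p under 0.05. With scan day as a block 9 of the 28 were lower. Other probe sets of apa-2, apb-1 and dpy-23 were also negative but not called (-0.48, -0.74 and -0.15). Of 18 genes for the vacuolar ATPase, the proton pump of acidic organelles, 5 were lower and 0 higher, with a median of -0.75. vha-8 gave 620.0, 289 and 491 in R0 and 127, 163 and 189.6 in M0, and vha-11 and vha-17 had log2 fold changes of -1.44 and -1.16. The other probe sets of vha-11 gave -0.45 to -0.02. The count of 5 became 8 with the replicate block, 10 with scan day as a block, 8 without M0 replicate 1 and 3 without M0 replicate 2, M0 replicate 3 or R0 replicate 3. Epidermis markers, 8 of 10 of which were lower in M0, moved with these groups, and their part was not tested.

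**Figure D3:**
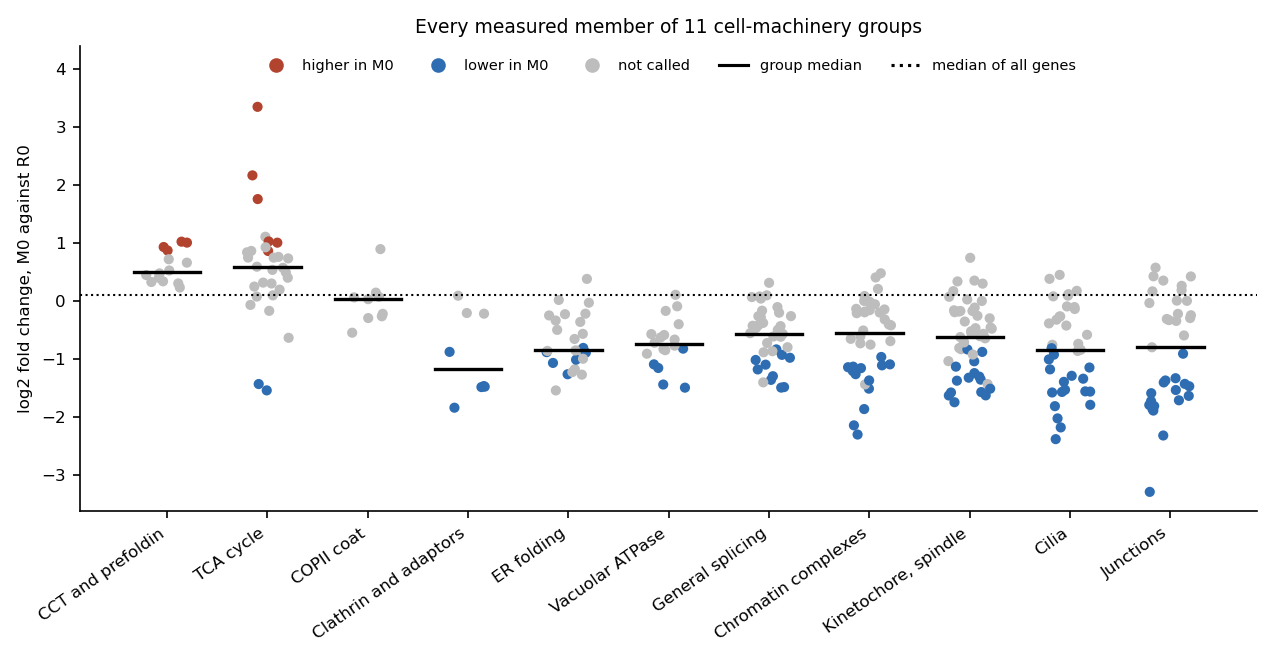
Log2 fold change of M0 against R0 for every measured member of 11 groups of cell machinery, coloured by call, with group medians as bars and the median of all genes (0.10) as a dotted line. All 14 CCT and prefoldin genes lie above 0, and cilium and junction genes reach deepest below it.

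Genes of the extracellular matrix were raised and lowered by component, with collagen IV and its modifying enzyme among the raised. Type IV collagen is a heterotrimer of 2 kinds of chain, let-2 and emb-9 in the worm, which must be hydroxylated in the ER before it folds. Of 17 genes of collagen IV and its processing 4 were higher in M0 and 1 was lower. let-2 stood at 384, 148.3 and 304 in R0 and 1222, 1077 and 2269 in M0 (2.48 ± 0.39), and emb-9 at 1354, 627 and 1339 and 3616, 3781 and 5338 (2.00 ± 0.31). The other probe set of emb-9 was not called (0.76). let-268, the lysyl hydroxylase that modifies the chains, gave 294, 150.3 and 225 in R0 and 923, 509.6 and 1147 in M0 (1.92 ± 0.34). ost-1, the collagen-binding SPARC relative, rose from an already bright R0 level (1630.0, 872 and 1391) to 3897, 3672 and 2396, and its call was lost without M0 replicate 2 (adjusted p = 0.0503). dpy-31, a protease that trims procollagens of the cuticle, fell by 2.23 on the log2 scale. Without R0 replicate 2 the number of lowered genes in this list was 3.

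Single genes of matrix proteases and their inhibitors gave the sharpest of these contrasts. mig-17, a secreted ADAMTS protease needed for migration of the gonad, had intensities of 73.4, 48.4 and 62.2 in R0 and 989, 669 and 976 in M0, a log2 fold change of 3.84 ± 0.23 (adjusted p = 1.02e-04). cri-2, related to tissue inhibitors of metalloproteases, rose from 313, 192 and 304 to 1553, 1256 and 1540.3 (2.45 ± 0.23). Of 5 matrix metalloproteases 1 was higher and 1, zmp-5, was lower (-1.64 ± 0.25), with a median of 0.47. The other of the 2 inhibitors measured gave -0.35, and of 5 ADAMTS genes mig-17 alone was called. Over the 16 genes of these families 3 were higher and 1 lower.

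Among 21 matrix glycoproteins, proteoglycans and receptors, 5 were higher and 6 lower, both above the shares over all genes. test-1, a testican-type proteoglycan, was among the brightest genes in either group, with 1799, 1156 and 2158 in R0 and 6293, 5201 and 5312 in M0. pat-2, the alpha integrin of muscle, was steady in R0 (330.2, 340.1 and 329) and 2.17-fold higher in M0 (794, 683 and 698). The perlecan gene unc-52 was lower in M0, with 1124, 1336 and 1409 in R0 against 264.4, 149 and 331 (-2.45 ± 0.28), and 1 of its 2 other probe sets was called lower as well. lam-3, a laminin alpha chain, fell by 1.26, but its other probe set gave 0.22. Of the 4 measured laminin genes 1 was higher and 1 lower, and 3 had a positive log2 fold change (median 0.64). The count of 5 raised genes was 3 without M0 replicate 1, M0 replicate 3, R0 replicate 1 or R0 replicate 2. Heparan sulfate decorates such proteoglycans, and of 18 genes for its and chondroitin's synthesis 2 were higher: rib-1, which polymerises the chain (1.32 ± 0.23), and the 3-O-sulfotransferase hst-3.1 (47.1, 29 and 41.8 in R0, 183, 89.6 and 153 in M0, 1.82 ± 0.29). The glypican lon-2, which carries heparan sulfate and restrains body growth signals, was lower (-1.73 ± 0.31), but its other probe set gave 0.23. The other probe set of rib-1 was not called (0.91).

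A few secreted signals were higher in M0. Of the 5 Wnt ligands, which instruct neighbouring cells through Frizzled receptors, cwn-1 and cwn-2 were higher in M0. cwn-2 had intensities of 92.5, 43.6 and 78.6 in R0 and 385, 190.4 and 329 in M0 (2.08 ± 0.34, adjusted p = 0.00364), and cwn-1 of 183, 96.3 and 113 and 316, 276 and 306 (1.25 ± 0.25). The M0 and R0 arrays of the other Wnts overlapped, with log2 fold changes of 0.28 for egl-20, -0.27 for lin-44 and 0.39 for mom-2 (adjusted p of 0.374 to 0.460). sfrp-1, a secreted decoy that binds Wnts, rose as much as cwn-2, from 418, 373 and 423 to 1674, 1238 and 2011 (1.99 ± 0.21). The beta-catenin bar-1, through which canonical Wnt signals act, was also higher (1.52 ± 0.20), whereas wrm-1, another beta-catenin, and the Dishevelled gene dsh-2 were lower (-1.33 ± 0.26 and -1.35 ± 0.22). In the whole list of 30, 6 were higher and 3 lower, with a median of -0.02. The other probe sets of wrm-1 and dsh-2 were negative but not called (-0.44 and -0.70).

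Among growth factors, 1 ligand each of the fibroblast growth factor and transforming growth factor beta types was higher. The fibroblast growth factor let-756 was dim in R0 (39.6, 48.5 and 62.6) and higher in M0 (87.1, 160.0 and 149, 1.37 ± 0.27), whereas the other such factor egl-17 and the epidermal growth factor lin-3 gave -0.29 and 0.04. egl-15, the receptor for let-756, was not called (0.95 ± 0.32, adjusted p = 0.0936), but its other probe set was (1.44), and with the replicate block egl-15 itself was called (adjusted p = 0.0327). ark-1, a kinase that inhibits epidermal growth factor signalling, was higher (493, 511 and 553 in R0, 1635, 1314 and 1199 in M0). Among 4 ligands of transforming growth factor beta type, unc-129, known for expression in muscle and for steering motor axons, had 252, 203 and 338 in R0 and 974, 613 and 928 in M0 (1.67 ± 0.25). dbl-1, daf-7 and tig-2 gave 0.22, -0.51 and 0.12, none called. daf-14, a Smad of the dauer branch, was lower (-1.62 ± 0.31), but its other probe set was not called (-0.41).

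Axon guidance cues were split. slt-1, the Slit cue, was higher in M0 (84.5, 42.3 and 78.5 in R0, 173, 133 and 398 in M0, 1.68 ± 0.41), with a call that was lost without M0 replicate 3, R0 replicate 2 or R0 replicate 3 (adjusted p of 0.0527 to 0.0723). Netrin, encoded by unc-6, was lower, at 1173, 1121 and 1076 in R0 and 514, 372 and 632 in M0, as was the Punctin gene madd-4 (-1.51 ± 0.24), a cue that also organises neuromuscular synapses. The receptor phosphatase ptp-3 was 3.22-fold lower (-1.69 ± 0.22). In the list of 30 guidance cues and receptors 1 was higher and 4 lower. Notch signalling, with 26 genes, had 0 raised and 2 lowered members, including the nuclear effector lag-1 (784, 728 and 714 in R0, 311, 348 and 306 in M0), and was close to the background (1 to 3 lowered without single arrays). Downstream insulin signalling had 2 of 11 lower, with akt-2 at -1.92 ± 0.27, and of 24 insulin-like peptides 2 were lower, with ins-18 at -1.69 ± 0.23. Without single arrays these counts were 1 to 3 and 1 to 2. Other probe sets of unc-6, madd-4, lag-1 and akt-2 were also negative but not called (-0.53, -0.92, -0.75 and -0.55).

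**Figure D4:**
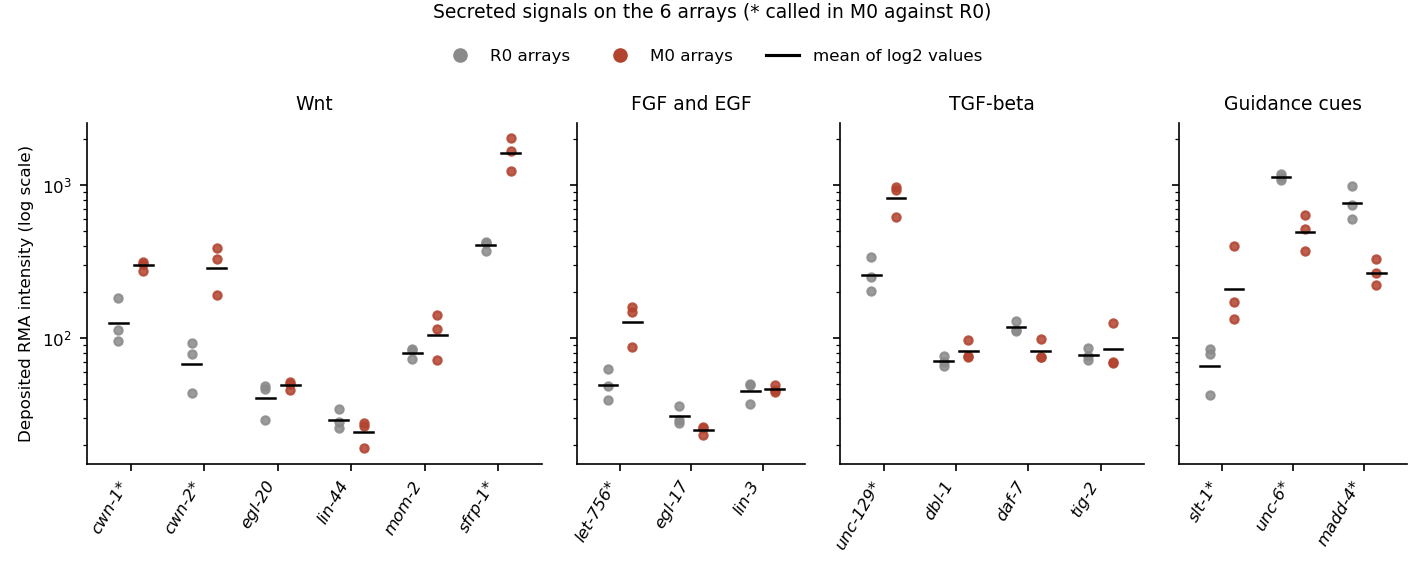
Deposited intensity (log scale) of secreted signals on each R0 array (grey) and M0 array (red), with the mean of log2 values as a bar. The groups are separate for each gene marked with an asterisk, and the other Wnt, growth factor and TGF-beta ligands stay at or below 142 on all arrays.

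Cell-surface adhesion genes were mixed, with more of both directions than the background. Of 27 immunoglobulin-domain genes 6 were higher and 9 lower. zig-7, a small immunoglobulin-domain protein, was the third-ranked gene overall (188, 94.9 and 129.99 in R0, 2622, 2106 and 1750.0 in M0, 4.01 ± 0.27, adjusted p = 1.47e-04), and its other probe set was called as well (2.54). zig-6 (2.78 ± 0.42), zig-1 (2.00 ± 0.31) and oig-2 (2.23 ± 0.22) were also higher. syg-1 and syg-2, which place synapses, gave 0.84 ± 0.18 and 1.29 ± 0.31. The call of syg-1 was lost without M0 replicate 3 or R0 replicate 3 and with scan day as a block (adjusted p of 0.0623, 0.0594 and 0.0563), and that of syg-2 without M0 replicates 1 or 3 or R0 replicates 2 or 3 (0.0622 to 0.0917). Lowered members included rig-5 (846, 970.2 and 919 in R0, 203, 145 and 207 in M0), rig-3 (-2.2 ± 0.26), ncam-1 (-2.24 ± 0.21) and oig-1 (-2.23 ± 0.31). lad-2, an L1-type adhesion gene, gave -2.62 ± 0.32, but its 4 other probe sets gave -0.51 to 0.35 and none was called. The other probe set of ncam-1 was negative but not called (-0.62). Neuron markers, 8 of 12 of which were lower in M0, moved with these genes, and their part was not tested. Tetraspanins, which organise membrane domains, had 4 higher and 5 lower of 17 (3 lower without M0 replicate 3). tsp-11 was nearly constant within M0 (955, 861 and 933) and well below that in R0 (181, 114.7 and 115.9, 2.77 ± 0.21), and tsp-8 and tsp-17 gave 2.25 ± 0.28 and 1.29 ± 0.19.

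Among channels and transporters, the two-pore potassium channels, which set resting potential, had 6 raised and 3 lowered members of 45. twk-31 stood at 69.5, 55.9 and 91.7 in R0 and 174, 329.6 and 437 in M0 (2.05 ± 0.33), followed by twk-8 (1.43 ± 0.31) and sup-9 (1.25 ± 0.25), a channel known to act in muscle. Innexins form the gap junctions of invertebrates, and 8 of 25 were lower. inx-18 was the only member called higher, at 98.9, 59.6 and 81.1 in R0 and 376, 164 and 372 in M0 (1.86 ± 0.34), while inx-3 (-2.19 ± 0.22) and inx-19 (-2.19 ± 0.19) had the deepest falls. In all, 10 of the 25 had a positive log2 fold change. The count of 8 was 5 without M0 replicate 1, M0 replicate 3, R0 replicate 1 or R0 replicate 3. snf-11, a transporter that takes up the neurotransmitter GABA, rose (537, 204 and 352 in R0, 1805, 847 and 1786 in M0). plc-2, a phospholipase C, was dim in R0 (30.5, 36.7 and 51.1) and uneven in M0 (246, 77.1 and 238, 2.1 ± 0.42). sto-1, a stomatin, was lower (-2.14 ± 0.35). unc-2, the presynaptic calcium channel, was among the 30 deepest falls (-3.25 ± 0.32), but its 3 other probe sets gave -0.36 to 0.19.

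Several families of secreted or unassigned proteins held steep members in both directions. Transthyretin-like proteins are a nematode family of small secreted proteins, and 9 of 40 were higher in M0 and 6 lower. ttr-35 had 434, 209 and 327 in R0 and 3129, 3144 and 2572 in M0 (3.25 ± 0.26), and ttr-47 and ttr-48 were close behind (3.07 ± 0.24 and 3.06 ± 0.31). ttr-50 and ttr-26 went the other way (-2.58 ± 0.43 and -2.50 ± 0.27). Of 220 C-type lectins only 2 were higher, yet clec-233 was very even in R0 (35.7, 36.8 and 37.4) and on average 13-fold brighter in M0 (473, 392 and 583), and clec-264 gave 3.05 ± 0.29. The serpin srp-1 (3.25 ± 0.46) and the saposin-like spp-15 (2.65 ± 0.20) and spp-10 (2.06 ± 0.34) were higher, and the lysozyme lys-8 was lower (976, 1182 and 842 in R0, 90.1, 112 and 85.1 in M0). Among 1281 chemoreceptor genes 10 were higher and 4 lower, well under the background, with sri-19 at 30.8, 36.7 and 42.1 in R0 and 786, 399 and 376 in M0, and str-148 and str-262 at 3.1 ± 0.39 and 2.78 ± 0.37. The raised count was 6 without R0 replicate 1, 5 without R0 replicate 3 and 33 with scan day as a block. The lowered count was 2 with scan day as a block, and also without M0 replicate 1, M0 replicate 3 or R0 replicate 3. Most chemoreceptors are dim on these arrays, and their median log2 fold change was 0.22.

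Regulators of transcription and splicing changed gene by gene. In the homeobox ceh genes 3 of 60 were higher and 12 lower. The Six-family genes were divided: ceh-33 (88.7, 43.6 and 85.9 in R0, 528, 202 and 334 in M0) and ceh-34 (1.14 ± 0.25) were higher and ceh-32 lower (889, 1090.0 and 949 in R0, 228, 210.3 and 277 in M0). The call of ceh-34 was lost without M0 replicate 3 (adjusted p = 0.0649), when only 1 raised ceh gene was left, and with scan day as a block (0.0501). ceh-22, which drives pharyngeal muscle genes, and the Distal-less gene ceh-43 were lower (-2.53 ± 0.23 and -1.92 ± 0.26). hlh-2, the worm's E protein, was lower (299, 329 and 286 in R0, 63.8, 142 and 124 in M0) while hlh-1 was higher, and hlh-15 was lower as well (-1.51 ± 0.30). Of 5 Sox genes 3 were lower, with sox-2 at -2.02 ± 0.23 and sox-3 at -1.23 ± 0.20. fkh-2 and fkh-8, both forkhead genes, differed in direction (1.59 ± 0.25 and -1.70 ± 0.21). Of 254 nuclear hormone receptors 3 were higher and 17 lower, among them nhr-69 (1.49 ± 0.19) and nhr-213 (-2.98 ± 0.24). Without R0 replicate 1 the lowered count was 11, and the raised count was 7 without M0 replicate 2 and 1 without M0 replicate 3 or R0 replicate 3. Among T-box genes limma called 0 of 19, and 0 of 19 had an unadjusted p under 0.05.

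Splicing regulators known for tissue-specific roles included etr-1, of the CELF family (249, 171 and 299 in R0, 859, 579.9 and 875 in M0, 1.7 ± 0.26), and sup-12, needed for muscle splice choices (1.01 ± 0.23), both higher. The sup-12 call was lost without M0 replicates 2 or 3 or R0 replicates 2 or 3 (adjusted p of 0.0580 to 0.0793), and with scan day as a block (0.0841). exc-7, an ELAV relative of neurons, was lower (-1.83 ± 0.21), but its other probe set gave 0.29. General splicing and RNA processing had 0 of 36 higher and 10 lower, with a median of -0.56. Examples are the Sm protein gene snr-3 (655, 647 and 667 in R0, 222, 274 and 207 in M0), the SR protein gene rsp-2 (-1.49 ± 0.22), cpsf-2 for 3-prime cleavage (-1.36 ± 0.20) and the nuclear poly(A)-binding pabp-2 (-1.18 ± 0.19). The count of 10 was 6 without M0 replicate 1 and 5 without R0 replicate 3.

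Several lists of chromatin and cell division genes held more lowered members than the background, whereas core histones were near it (3 of 26, and 0 without M0 replicate 1 or 3 or R0 replicate 1 or 3). Polycomb, SynMuv and remodelling complexes had 0 of 38 higher and 13 lower (median -0.56, and -0.58 and -0.45 within the day pairs). lin-53, a histone chaperone shared by several of these complexes, was tight in both groups, at 574, 516 and 640.4 in R0 and 116.2, 111 and 122.02 in M0 (-2.30 ± 0.17, adjusted p = 1.74e-04). The histone variant gene htz-1 (-2.15 ± 0.43), the SWI/SNF gene swsn-2.2 (-1.87 ± 0.25), the retinoblastoma gene lin-35 (-1.21 ± 0.22) and efl-1, its E2F partner (-1.13 ± 0.20), were lower, although the other probe set of efl-1 gave -0.08. In kinetochore, spindle and cytokinesis genes 0 of 48 were higher and 15 lower (median -0.62, and 25 lower with scan day as a block), with zen-4, a kinesin of the midzone (699, 388 and 842 in R0, 205, 155 and 189 in M0), the centromeric histone hcp-3 (-1.63 ± 0.34) and knl-2 (-1.63 ± 0.24). Condensin and cohesin had 0 of 25 higher and 7 lower, with capg-2 at -1.65 ± 0.29. Of 20 genes of nucleotide synthesis 6 were lower, among them both ribonucleotide reductase genes, rnr-1 (717, 186 and 669 in R0, 85.2, 106 and 121.96 in M0) and rnr-2 (-1.94 ± 0.39), and dut-1, which clears dUTP (-1.34 ± 0.27).

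R0 replicate 2 was the lowest R0 array for htz-1, hcp-3, rnr-1, rnr-2 and capg-2, nearer to M0 than the other R0 arrays were. The calls of htz-1, hcp-3 and rnr-2 were lost without M0 replicate 2 (adjusted p of 0.0505, 0.0514 and 0.0503), and that of rnr-1 without M0 replicate 2, R0 replicate 1 or R0 replicate 3 (0.0523 to 0.0592). Lowered counts were 8 of the chromatin list and 9 of the kinetochore list without R0 replicate 3, 4 of the condensin list without R0 replicate 1 and 2 of the nucleotide list without M0 replicate 2. The medians of these 4 lists stayed below 0 without each array. Of 33 aminoacyl-tRNA synthetases and 17 autophagy genes limma called 0 in either direction, with 2 higher and 4 lower, and 0 higher and 4 lower, at an unadjusted p under 0.05. Without M0 replicate 3 or R0 replicate 2, 1 synthetase was called lower. With scan day as a block 1 synthetase was higher and 9 were lower, and 2 autophagy genes were lower.

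Structures of polarised epithelia and ciliated neurons were lowered well beyond the background. Cilia in the worm are found only on sensory neurons. Of 37 cilium and intraflagellar transport genes 0 were higher and 18 lower, with a median of -0.84. bbs-5 (558, 271 and 369.5 in R0, 72.1, 66.8 and 81.7 in M0) and osm-5 (450.5, 392 and 527 in R0, 137, 93.8 and 108 in M0) were lower, with log2 fold changes of -2.38 and -2.03. dyf-7 (-2.18 ± 0.28), che-11 (-1.79 ± 0.34), the dynein motor che-3 (-1.56 ± 0.19) and osm-1 (-1.53 ± 0.19) were lower too. Of 35 cadherin, claudin-like and junction genes 0 were higher and 17 lower (median -0.80). fmi-1, a seven-pass cadherin of axon growth, gave 1879, 1949 and 1756 in R0 and 282, 66.1 and 367 in M0, with M0 replicate 2 far below the other M0 arrays. cdh-3 (-2.32 ± 0.33), clc-5 (-1.89 ± 0.19), the polarity genes par-3 (-1.59 ± 0.21), pkc-3 (-1.41 ± 0.20) and let-413 (-1.71 ± 0.19), and the cell fusion genes eff-1 (-1.33 ± 0.17) and aff-1 (-1.79 ± 0.24) were lower. The classical cadherin hmr-1 gave -1.64 ± 0.32, but its 4 other probe sets ranged over -0.89 to 0.03, with 1 called. For eff-1 and aff-1 the other probe set gave -0.08 and -0.02, and for pkc-3 and let-413 -0.25 and -0.19. Neuron and epidermis markers moved with both lists, and their part was not tested. The epidermis markers dlg-1, ajm-1 and let-413 are also members of the junction list, so that these lists are not independent.

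Microtubule and filament genes were lower in 12 of 45, with tbb-2, a beta-tubulin, at 3520.2, 1860.0 and 2886 in R0 and 701, 553 and 1383 in M0, and ifb-1, an intermediate filament of epidermis, at -2.62 ± 0.31. The tbb-2 call was lost without M0 replicate 2 (adjusted p = 0.0512), and the count was 6 or 7 without M0 replicate 1, M0 replicate 2, R0 replicate 1 or R0 replicate 3. dlc-1, a dynein light chain, was 1 of the 2 raised, and bright throughout (2353, 2603 and 2593 in R0, 5483, 5633 and 4066 in M0). Neuropeptide genes were lower in 15 of 25 of the FMRFamide-like and 25 of 58 of the other family, with flp-16 (-3.1 ± 0.21) and nlp-80 (-3.33 ± 0.22) in the 30 deepest falls. Neuron markers, 8 of 12 of which were lower, moved with these families, and their part was not tested.

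Glutathione S-transferases, which conjugate reactive compounds, gave some of the deepest falls of the comparison, and 11 of 40 were lower and 1 higher. gst-12 went from 2427, 1894 and 1825 in R0 to 203, 107 and 184 in M0 (-3.68 ± 0.26, adjusted p = 1.60e-04), gst-31 from 1197, 947 and 1035 to 114.8, 44.9 and 103, and gst-10 gave -3.36 ± 0.42. gst-39 was among the brightest R0 transcripts named here (7554, 6432 and 6795) and kept 1379, 707 and 1138 in M0. gst-12, gst-30, gst-31 and gst-39 are all on chromosome II, and close copies may share signal. The single raised member was gst-22 (38.7, 49.7 and 43.2 in R0, 170.0, 102 and 126 in M0). Other deep falls were the transporter pgp-14 (-3.43 ± 0.29), the glucuronosyltransferase ugt-50 (-2.46 ± 0.22) and the cuticle collagen col-97 (-3.23 ± 0.26), for which the other probe set was lower but not called (-1.47). Their families were near the background or under it. Lower were 3 of 48 ABC transporters, 6 of 64 glucuronosyltransferases and 12 of 128 cuticle collagens. Of 73 cytochrome P450 genes 1 was lower. Of 25 Skp1-related and cullin genes 8 were lower, with skr-8 (-2.01 ± 0.30) and skr-13 (-2.27 ± 0.37) measured by probe sets that may match close copies. The count of 8 was 5 without R0 replicate 3.

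Called genes were not spread evenly over chromosomes. On X, 148 of 2351 measured genes were higher in M0 (6.30%) and 280 were lower (11.9%). Over the 5 autosomes the shares were 3.61% and 7.83% of 14718 genes, and chromosome V had the lowest shares in both directions (2.99% and 6.51%). The difference is present where only genes reaching the median intensity in either group were counted: 9.71% and 18.2% of 1504 genes on X against 6.32% and 13.6% of 8181 on autosomes. Genes of a chromosome are not independent samples, and no test was made of this difference. The low rank of chromosome V held only over all measured genes. Among the brighter genes the lowest shares were on IV for those higher (5.84%) and on III for those lower (12.9%).

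**Figure D5:**
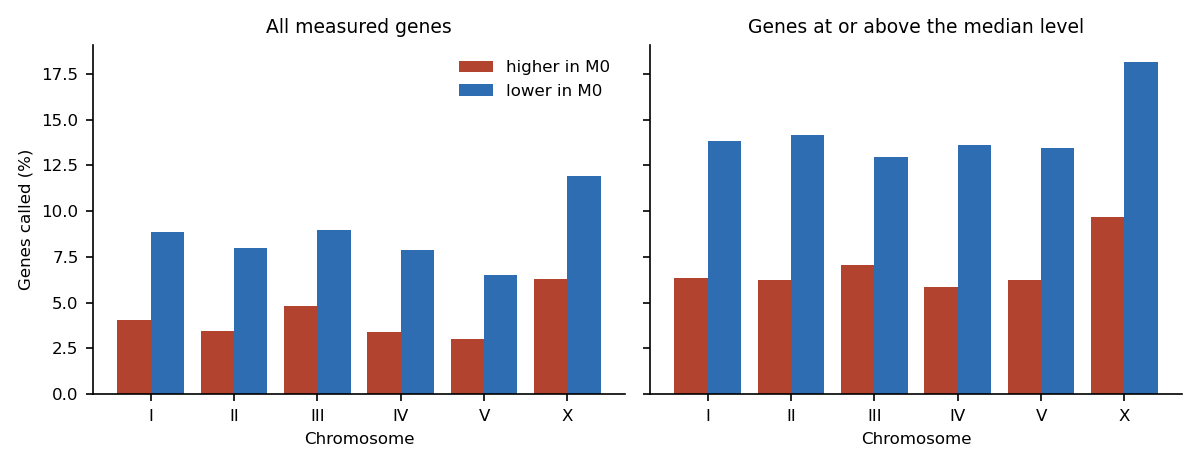
Percent of measured genes called higher (red) or lower (blue) in M0 for each chromosome, over all measured genes (left) and over genes whose level reached the median intensity in either group (right). Chromosome X has the highest share in both directions in both panels.

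Called genes were brighter than the rest. The median intensity of raised genes was 130.4 in R0 and 436 in M0, and that of lowered genes 239 in R0 and 83.2 in M0, against 46.2 and 49.9 for genes not called. Many lowered genes thus kept a signal in M0 above the median gene. The 179 called genes named here include 77 with at least 1 other probe set. In 34 of them another probe set was called in the same direction, in 43 none was, and in 0 was another called in the opposite direction, although 7 had another probe set of opposite sign. Not all of these probe sets are given beside their genes. Of the 179, 160 kept their call without each of the 6 arrays in turn and 172 with scan day as a block. The exceptions are named beside their values. For 13 of the lists above with several lowered and 0 raised members, calls in the other direction were counted. These were the ER, coat, vacuolar ATPase, splicing, chromatin, kinetochore, condensin, nucleotide, cilium, junction, Skp1 and 2 neuropeptide lists. In them 0 to 2 members were higher at an unadjusted p under 0.05, and leaving out 1 array gave at most 1 raised call. Other lists without a raised member were not all so one-sided: 10 cuticle collagens and 3 insulin-like peptides were higher at an unadjusted p under 0.05.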

How the data were processed

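RNA of the 6 arrays was amplified, labelled with biotin and hybridised to the Affymetrix C. elegans array by the authors, who summarised probe sets by RMA. The deposited values are the resulting intensity on a linear scale, with a median of 49.2 to 55.5 per array and unequal spread, so that these 6 arrays do not share 1 distribution, and RMA compresses small differences between dim probe sets. Arrays carry no read depth, so that the number of arrays limits the precision. Deposited scanner settings (other text, not measurements) gave the scan day and chip lot.

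Intensities were log2-transformed without a pseudocount and fitted with limma 3.58.1 in R 4.3.3 (lmFit, eBayes, two-sided). Significance analysis of microarrays, the study's own test, was not run. Values are log2 fold changes ± the standard error of the fit, and p-values were adjusted over all 22548 probe sets (called at an adjusted p under 0.05 and at least 1.7-fold). Of these, 20766 name 1 gene, 887 several and 895 none in the platform annotation, and 20701 of the first were found in the RefSeq gene table (WBcel235). A gene is its probe set with the highest mean over the 6 arrays. Probe sets ending in _s_at or _x_at can match several transcripts. The fit was tested on simulated data for M0 against R0 with all 22548 probe sets, of which 50 per size were changed. It recovered 70.0% of changes of 1 log2 unit, 98.0% of 1.5 and 100% of 2 and of 3. The simulated errors were normal and independent, without scan days or unequal spread. These rates therefore need not hold for the real arrays.

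Replicate numbers of the labels were taken as pairs, since same-numbered arrays deviated together from their group means (correlations of 0.216, 0.324 and 0.153), and a replicate block was run as an alternative. The labels do not say what a number marks, and M0 replicate 3 also correlated with R0 replicate 1 (0.269), and M0 replicate 2 with R0 replicate 3 (0.103). Other alternatives were scan day as a fixed or random block, values within shared days, other scalings, filters and thresholds, and each array left out.

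Function lists (43 by symbol, with cell type markers, and 47 families by symbol pattern) and the genes described were chosen with earlier results of these data known, and no list was tested. Named genes are myo-3 and hlh-1 as checks of the label, the 30 with the largest called change in each direction, up to 6 called members per list and direction, and members described by role. An item that falls under this rule is not reported here. Promoter motifs were not analysed here. Python 3.11.15, pandas 2.3.3 and matplotlib 3.10.9 were used for tables and figures.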

Additional observations from a re-analysis of the deposited data

How the results depend on the processing

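Of 17118 genes, 680 were called higher and 1437 lower in M0. With a replicate block, that is, with the same-numbered arrays paired, the counts were 745 and 1556, and all 179 called genes named above kept their call, and egl-15 gained one. Each of the 6 arrays left out in turn gave 488 to 725 higher and 1072 to 1522 lower genes (620 to 907 and 1281 to 1901 probe sets, against 859 and 1784), and in the lists 94 to 136 higher and 309 to 447 lower genes, against 133 and 406. Scan day as a fixed block gave 828 and 1945 genes, quantile normalization 800 and 1283, log2(value + 16) 560 and 1149, and, in 2 alternatives chosen after seeing the data, the 4 arrays of shared scan days 484 and 1348 and the 4 arrays of widest range 701 and 1440. None of the alternatives fitted called a gene in the direction opposite to that reported. Without probe sets of several genes or ending in _s_at or _x_at, 548 probe sets were higher and 1132 lower, of the 15594 that remain to be tested. In the same setting the log2 fold change of lad-2 became 0.29 (adjusted p = 0.451) and that of hmr-1 became 0.035 (adjusted p = 0.930), each from another probe set of the gene. Values within shared scan days have no test and give no counts. Signal limits the comparison for dim genes, which RMA places near a common floor.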
